A study of Mus musculus with 6 samples.

Results

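Transcripts of 10 genes of insulin and insulin-like growth factor (IGF) signalling were compared between hypothalamus of aged mice (22 months old) and of young mice (12 weeks old), with 3 mice sequenced per age out of 5 per age that went through a behavioural experiment. The genes were taken by symbol from the count table and comprise the ligands Igf1 and Igf2, the receptors Igf1r, Igf2r and Insr, the binding proteins Igfbp2, Igfbp3, Igfbp4 and Igfbp5, and the receptor substrate Irs2; all 10 were found among 18228 genes and all 10 had enough reads to be tested. The mice had free food and water and a regular light cycle, and the study asked which genes accompany cognitive decline with age in this region. The labels name no strain, sex, genotype or treatment.

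IGF-1 and IGF-2 are small secreted proteins related to insulin. They act mainly through the IGF-1 receptor, a tyrosine kinase close in structure to the insulin receptor, while the IGF-2 receptor takes IGF-2 into the cell for breakdown in lysosomes. Secreted IGF binding proteins carry the ligands and hold them back from, or deliver them to, the receptors. Activated receptors phosphorylate the insulin receptor substrates IRS1 and IRS2, which recruit PI3-kinase and so switch on AKT, and AKT in turn keeps FOXO transcription factors out of the nucleus. In hypothalamus, insulin and IRS2 signalling take part in the control of feeding, body weight and glucose output, and lowered insulin or IGF signalling lengthens life in worms, flies and mice.

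Of the 10 genes, 1 was higher and 3 were lower in aged hypothalamus, and 6 did not pass (edgeR quasi-likelihood test, Benjamini-Hochberg adjusted p under 0.05 over 14702 genes). Irs2 rose, and Igf2, Igf1r and Igfbp5 fell. Thus 40% of the 10 were called, beside a background of 6.86% over all genes tested, where 3.22% were called higher and 3.64% lower. The 10 genes were chosen with earlier results of these data known, so this share is not independent evidence. It also depended on single libraries: without aged replicate 3, 0 of the 10 were called higher and 0 lower, beside 1.01% of all genes called. The median log2 fold change of aged over young was -0.24 for the 10 genes and -0.003 for all genes tested. The values of the 3 aged and 3 young mice did not overlap in 4 of the 10 genes, the same 4 that passed, beside 31.7% of all genes tested.

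**Figure D1:**
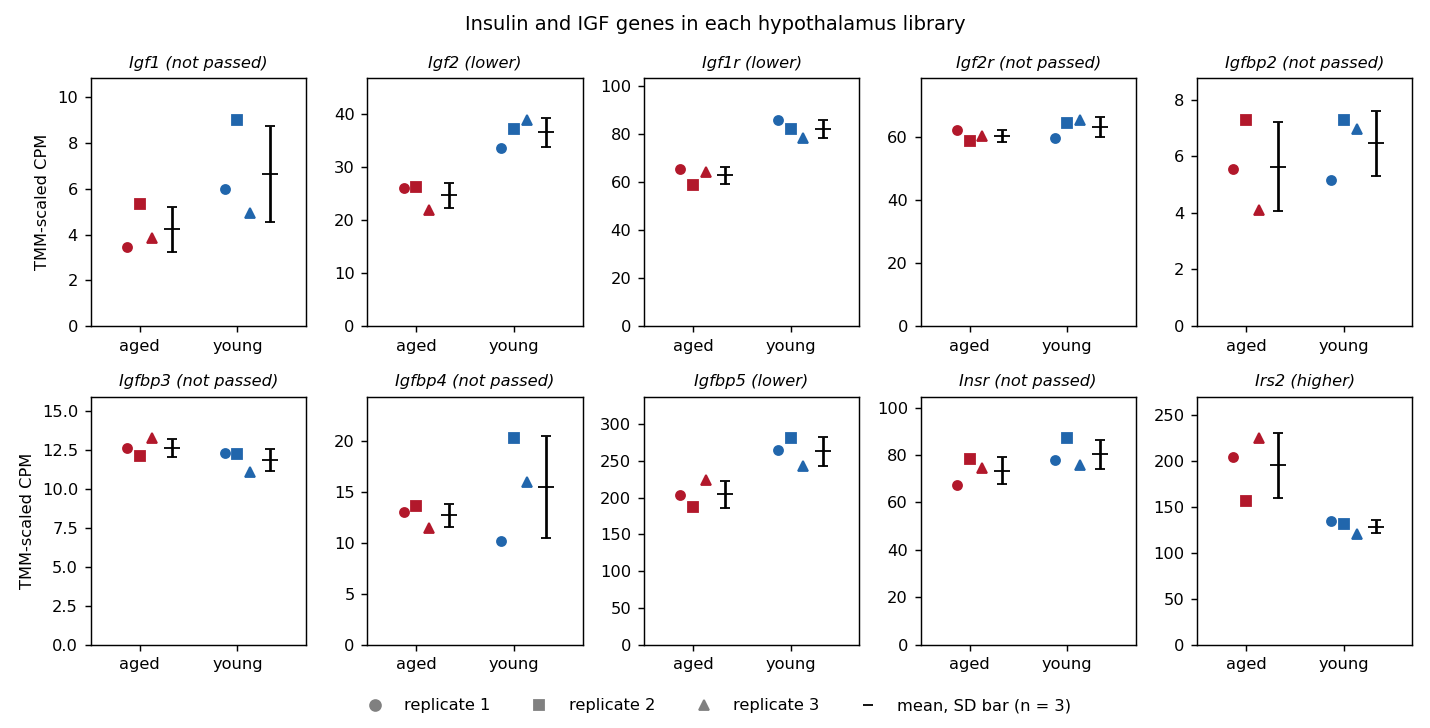
Level of each of the 10 genes in every library, in CPM (reads scaled by edgeR's TMM method to a common library total), aged left of young; points are single mice and bars show the mean with its SD (n = 3). Aged and young points are separate for Igf2, Igf1r, Igfbp5 and Irs2 and mixed for the other 6 genes.

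Counted reads per library ran from 17208291 to 18884403. Aged replicate 2 stood apart from the other aged libraries: the chi-square per degree of freedom between replicates, where 1 is sampling noise, was 11.6 and 9.77 for its pairs and 3.91 for aged replicates 1 and 3. Without it, the log2 fold changes of Irs2, Igf2, Igf1r and Igfbp5 were 0.75, -0.60, -0.33 and -0.29, and all 4 passed in edgeR. The pairs of young replicate 2 stood at 10.9 and 7.72, beside 5.71 for young replicates 1 and 3. Without young replicate 2, the same log2 fold changes were 0.625, -0.55, -0.38 and -0.31. Igfbp5 then did not pass (edgeR adjusted p = 0.0771), while the others did. Reads of 4 Y-linked genes (Uty, Ddx3y, Eif2s3y and Kdm5d) summed to 3394 to 3617 per library in aged mice and to 24 to 32 per library in young mice. The labels give no sex, so whether the groups also differed in sex is not stated. Age cannot be told apart from this difference in Y-linked expression, or from a difference in sex, in any comparison here. Each rise or fall below is one between these groups, not one of age alone. In tissue RNA, fewer cells of a type and less RNA per cell cannot be told apart either. Neuron markers were abundant in all 6 libraries (12 markers, summed level 6303 to 6559 CPM in aged and 6480 to 7284 CPM in young), and 0 of the 12 passed in edgeR, DESeq2 or limma-voom (1 had an unadjusted p under 0.05). Of 12 astrocyte markers, 4 fell and 0 rose, with a summed level of 3214 to 4377 CPM in aged and 4758 to 4975 CPM in young. Of 10 markers of oligodendrocyte precursors, 2 fell and 0 rose, and of 12 tanycyte markers, 5 rose and 1 fell. Over all genes tested, 3.22% were called higher and 3.64% lower. The part of these cell types in the results below was not tested.

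The promoters of 3 of the genes that passed are shown because each has 1 annotated start in RefSeq and they differ in make-up (RefSeq entries matched 9 of the 10 genes). They are the 250 bases before the start on the gene's own strand, from RefSeq on GRCm38.p6, which is not the build named for the counts (GRCm39). Capitals mark matches, on either strand, to a FOXO core (TTGTTT), a cyclic AMP response element core (TGACG), an E-box (CACGTG), a GC box (GGGCGG) or a glucocorticoid receptor core (AGAACA).
Irs2, chr8:11008930-11009179, minus strand: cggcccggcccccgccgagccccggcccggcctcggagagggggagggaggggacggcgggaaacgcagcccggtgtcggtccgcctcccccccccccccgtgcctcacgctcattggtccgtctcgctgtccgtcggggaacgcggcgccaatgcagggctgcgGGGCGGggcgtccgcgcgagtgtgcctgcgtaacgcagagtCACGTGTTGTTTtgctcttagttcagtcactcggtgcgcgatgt
Igf1r, chr7:67952007-67952256, plus strand: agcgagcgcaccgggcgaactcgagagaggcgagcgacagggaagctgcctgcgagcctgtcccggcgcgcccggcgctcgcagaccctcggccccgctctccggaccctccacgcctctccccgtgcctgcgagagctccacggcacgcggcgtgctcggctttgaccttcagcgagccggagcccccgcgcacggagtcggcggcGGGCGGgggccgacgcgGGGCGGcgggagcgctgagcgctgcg
Igfbp5, chr1:72874866-72875115, minus strand: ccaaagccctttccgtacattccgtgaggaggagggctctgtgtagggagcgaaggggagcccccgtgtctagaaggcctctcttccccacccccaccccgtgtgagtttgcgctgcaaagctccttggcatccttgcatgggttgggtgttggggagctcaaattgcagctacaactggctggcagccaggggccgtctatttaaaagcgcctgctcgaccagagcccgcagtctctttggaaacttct

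The Irs2 window held an E-box beginning 44 bases before the start and a FOXO core beginning 38 bases before it, which abut, and a GC box 85 bases before it. The FOXO core occurs in 18.3%, the E-box in 6.02% and the GC box in 32.7% of 32851 such windows. The FOXO core also stood in 1 of the 4 Igf2 windows (54 bases before the start) and 1 of the 2 Igfbp2 windows (49 bases), and E-boxes stood in an Igfbp2 window (142 bases) and in the Igf2r window (48 and 7 bases). Igf2 fell, and Igfbp2 and Igf2r did not pass. The Igf1r window held 2 GC boxes, and the Igfbp5 window held none of the 5 motifs. The GC content was 72.8% for Irs2, 77.6% for Igf1r and 58.8% for Igfbp5, beside a median of 52.4% over all windows. The cyclic AMP element core and the glucocorticoid receptor core were not found in these 3 windows; they occur in 17.8% and 16.1% of all windows. Igf2 has 4 annotated starts, and counts per gene do not show which of them was used.

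Levels of different genes can be compared only per length, as FPKM. By that measure Igfbp5 was the most abundant of the 10, at 35.2 ± 3.02 FPKM in aged and 44.4 ± 2.74 FPKM in young hypothalamus (SD, n = 3 each). Irs2 came next, at 29.0 ± 5.06 FPKM in aged and 18.7 ± 0.877 FPKM in young. Insr stood at 7.90 ± 0.680 FPKM in aged and 8.45 ± 0.559 FPKM in young mice. In aged libraries Igf2r followed at 6.84 ± 0.149 FPKM, above Igf2 at 4.98 ± 0.493 and Igf1r at 4.87 ± 0.233, which did not differ beyond their spread. In young libraries Igf2 (7.21 ± 0.611 FPKM) and Igf2r (7.01 ± 0.396 FPKM) did not differ beyond their spread and Igf1r stood at 6.25 ± 0.239 FPKM. Igfbp4, Igfbp2 and Igfbp3 averaged between 2.92 and 4.72 FPKM in both ages, with SDs up to 1.53. Igf1 was the least abundant, at 0.498 ± 0.121 FPKM in aged and 0.764 ± 0.236 FPKM in young, and it rested on 62 to 157 reads per library.

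Of the ligands, Igf2 fell. Igf2, the IGF that is made in the adult brain chiefly by the meninges, vessel-associated cells and choroid plexus, had 26.0, 26.1 and 21.9 CPM in the 3 aged libraries, against 33.5, 37.1 and 38.9 CPM in the 3 young ones. Every aged library lay below every young one. The log2 fold change was -0.56 ± 0.09 (SE; edgeR adjusted p = 0.0130), a level 0.676 times that of young mice. The call was lost in 1 of 18 alternatives, without aged replicate 3 (-0.48, edgeR adjusted p = 0.0635).

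Markers of some of the cells that make Igf2 moved with it, and others did not. Of 14 markers of meningeal and perivascular fibroblasts, 0 rose and 3 fell (Col3a1, Col1a1 and Slc6a13), and their summed level was 51.7 to 62.1 CPM in aged and 66.5 to 82.0 CPM in young libraries, with no overlap. Among the defining markers, Col1a1, a fibrillar collagen chain, fell (-0.99 ± 0.17), while Col1a2 (-0.38 ± 0.14, edgeR adjusted p = 0.129) and the proteoglycan Dcn (0.00 ± 0.20, edgeR adjusted p = 0.994) did not pass. All 3 had reads in every library. Of 12 pericyte and smooth muscle markers, 3 fell, with a summed level of 220 to 242 CPM in aged and 299 to 362 CPM in young. Of 12 endothelial markers, 1 rose and 3 fell, while their summed level overlapped and ran the other way, at 423 to 469 CPM in aged and 358 to 433 CPM in young. Of 12 choroid plexus markers, 8 could be tested and 0 passed in edgeR, DESeq2 or limma-voom (2 had an unadjusted p under 0.05), and their summed level overlapped between the ages (92.1 to 104 CPM in aged, 67.8 to 121 CPM in young). The choroid plexus marker Ttr was low, at 3.87 to 6.95 CPM in aged and 1.35 to 20.0 CPM in young. These counts stand beside 3.22% called higher and 3.64% called lower over all genes tested. The part of these cells in the lower Igf2 was not tested.

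Igf1, the IGF made by neurons and microglia in brain, had 3.48, 5.35 and 3.87 CPM in aged libraries, against 5.98, 9.02 and 4.95 CPM in young ones. The highest aged library lay above the lowest young one, so the groups overlapped. The log2 fold change was -0.65, with a 95% interval of -1.19 to -0.10, and it did not pass (edgeR adjusted p = 0.131). The size depended on young replicate 2, the highest library: without it the log2 fold change was -0.36 (edgeR adjusted p = 0.344). That library was also the one with the most signal of cortical and thalamic markers (1557 CPM over 12 cortex, hippocampus and amygdala markers, against 815 to 977 CPM in aged and 871 and 1104 CPM in the other young libraries), and 419 CPM over 12 thalamus and habenula markers, against 210 to 223 CPM in aged and 304 and 210 CPM in the other young libraries. Young replicate 2 was also the highest library for Igfbp4 and, among genes called lower, for Igfbp5, Ide, Shc3, Gsk3b, Deptor and Pik3r1. Without that library, Igfbp5, Shc3, Gsk3b, Deptor, Pik3r1 and Irs1 lost the call, while Igf2, Igf1r and Ide kept it. The part of tissue from neighbouring regions in any of these was not tested. Of 12 microglia markers, 3 rose and 1 fell, beside 3.22% called higher and 3.64% called lower over all genes tested. Their summed level was 465 to 509 CPM in aged and 396 to 419 CPM in young.

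Of the receptors, Igf1r fell while Insr and Igf2r did not pass. Igf1r, the kinase receptor for both IGFs, had 65.2, 58.6 and 64.1 CPM in aged libraries, against 85.9, 82.0 and 78.1 CPM in young ones. The groups were well apart relative to the spread within each. The log2 fold change was -0.39 ± 0.07 (SE; edgeR adjusted p = 0.0153), a level 0.764 times that of young mice. The call was lost without aged replicate 3 (-0.40, edgeR adjusted p = 0.0649) and without young replicate 1 (-0.35, edgeR adjusted p = 0.0589). It held in the other 16 of 18 alternatives. The decrease was smallest with the trend on gene length removed (-0.275, edgeR adjusted p = 0.0450).

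Insr, the insulin receptor, had 67.3, 78.5 and 74.6 CPM in aged libraries, against 78.1, 87.1 and 75.7 CPM in young ones. The groups overlapped, and the log2 fold change of -0.13 had a 95% interval of -0.31 to 0.05 (edgeR adjusted p = 0.344). Igf2r, the clearance receptor, had 62.4, 58.7 and 60.3 CPM in aged libraries and 59.8, 64.5 and 65.6 CPM in young ones, with an interval of -0.21 to 0.08 for the log2 fold change (edgeR adjusted p = 0.566). For both, changes larger than the ends of these intervals are outside what the fit allows at 95%.

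Ratios within a library show how the receptors stood to each other. Igf1r over Igf2r, in FPKM, was 0.713 ± 0.0229 in aged and 0.895 ± 0.0860 in young libraries (SD, n = 3 each), and the groups did not overlap (two-sided exact permutation p = 0.1, the smallest that 20 assignments allow). Igf1r over Insr was 0.622 ± 0.0808 in aged and 0.742 ± 0.0574 in young, and here the groups overlapped (two-sided exact permutation p = 0.2). With 3 libraries per age neither p could fall below 0.1. These tests therefore could neither show nor exclude a different change of Igf1r from that of Igf2r or Insr.

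**Figure D2:**
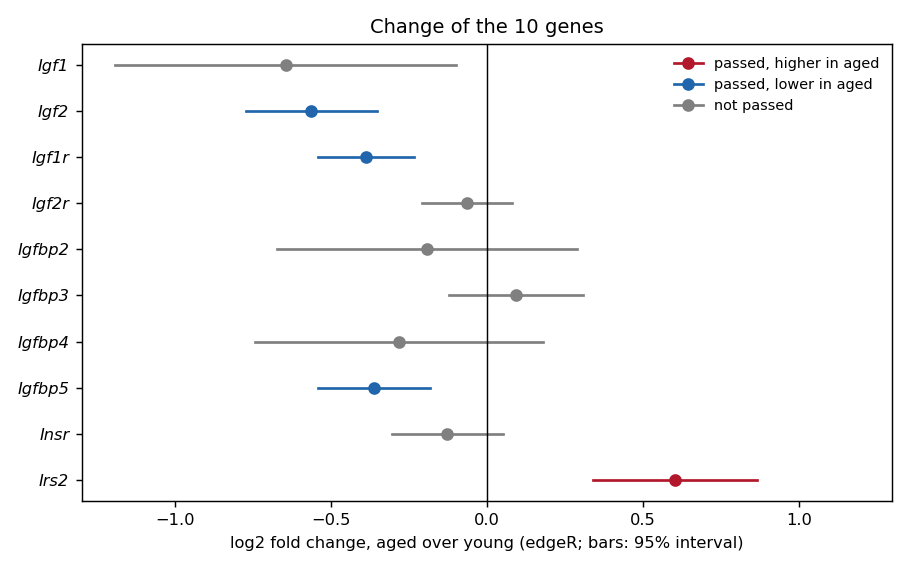
Log2 fold change of aged over young for the 10 genes from the edgeR fit, with bars for the 95% interval; red passed higher in aged, blue passed lower in aged, grey did not pass. The interval of Igf1 is the widest of the 10 and lies below 0 although the gene did not pass after adjustment over all genes.

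Of the binding proteins, Igfbp5 fell and Igfbp2, Igfbp3 and Igfbp4 did not pass. Igfbp5, a binding protein that also attaches to extracellular matrix, had 203, 187 and 224 CPM in aged libraries, against 265, 281 and 243 CPM in young ones. Every aged library lay below every young one, with aged replicate 3 and young replicate 3 the closest. The log2 fold change was -0.36 ± 0.08 (SE; edgeR adjusted p = 0.0296), a level 0.778 times that of young mice. It was the least stable of the 3 decreases, and 4 of 6 fits without a single library lost the call: without aged replicates 1 and 3 the adjusted p in edgeR was 0.104 and 0.0565, and without young replicates 1 and 2 it was 0.0881 and 0.0771, with log2 fold changes of -0.42 to -0.31.

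Igfbp3, the main carrier of IGFs in blood, had 12.6, 12.1 and 13.3 CPM in aged libraries, against 12.3, 12.2 and 11.1 CPM in young ones (interval of the log2 fold change -0.12 to 0.31, edgeR adjusted p = 0.585). Igfbp4, which mostly inhibits IGF action, had 13.0, 13.7 and 11.5 CPM in aged libraries and 10.2, 20.3 and 16.0 CPM in young ones. Its young values were widely spread, and the interval of -0.75 to 0.18 allows a sizeable decrease (edgeR adjusted p = 0.418). Igfbp2, a binding protein of glia and of the choroid plexus, had 5.55, 7.27 and 4.10 CPM in aged libraries, against 5.16, 7.30 and 6.95 CPM in young ones (interval -0.68 to 0.29, edgeR adjusted p = 0.612). Igfbp2 had 71 to 140 reads per library.

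The share of Igfbp5 in the pool of binding protein transcripts was computed after values were seen, and it was not tested. Igfbp5 was the largest part of this pool, so its lower share in aged libraries partly restates its own decrease. Of the summed FPKM of Igfbp2 to Igfbp7, it took 58.8%, 51.1% and 60.1% in aged libraries, against 65.8%, 61.9% and 61.0% in young ones. The groups did not overlap, though aged replicate 3 and young replicate 3 were close. Igfbp7, a related secreted protein of vessels with low affinity for IGFs, took 21.4%, 28.4% and 23.4% in aged and 19.2%, 16.1% and 18.8% in young libraries, and its own level did not pass (log2 fold change 0.23 ± 0.12, edgeR adjusted p = 0.253). Each of the other 4 took 1.65% to 8.07%.

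**Figure D3:**
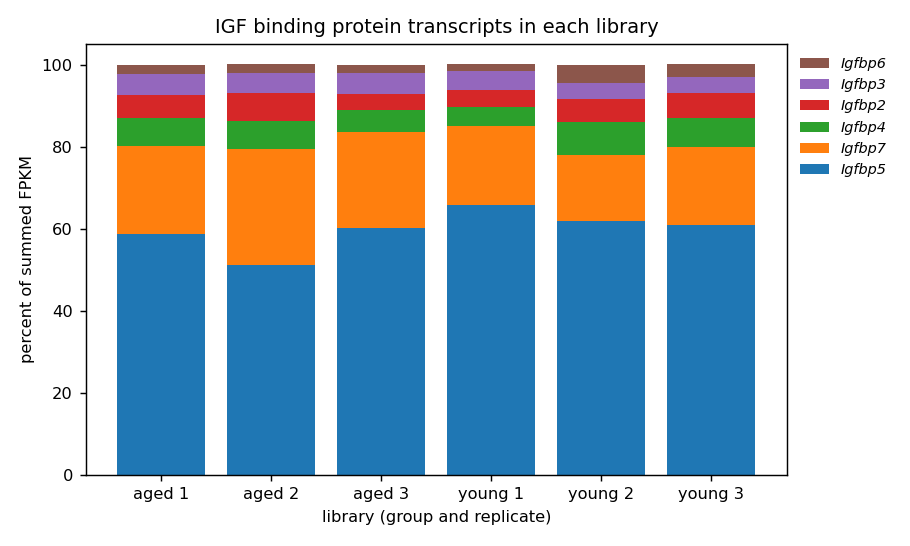
Share of each binding protein gene in the summed FPKM of Igfbp2 to Igfbp7, one bar per library, aged left of young. Igfbp5 takes 51.1% to 60.1% in aged and 61.0% to 65.8% in young libraries.

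Irs2 rose. It had 205, 156 and 225 CPM in aged libraries, against 134, 131 and 120 CPM in young ones. All aged libraries lay above all young ones, and the aged values were the more spread, with aged replicate 2 the lowest of them. The log2 fold change was 0.60 ± 0.12 (SE; edgeR adjusted p = 0.0205), 1.52 times the level of young mice. With 2161 to 3903 reads per library, counting error was small beside the spread between mice. The call held in 12 of 12 alternatives that kept all libraries; it was lost without aged replicates 1 and 3 (edgeR adjusted p = 0.0707 and 0.0752) and without young replicates 1 and 3 (edgeR adjusted p = 0.0559 and 0.0673), with log2 fold changes of 0.50 to 0.64.

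Irs1, the sister substrate, moved the other way. It had 21.7, 22.9 and 22.4 CPM in aged libraries, against 28.4, 28.2 and 28.4 CPM in young ones. The change was small and the spread within each age smaller still, with a log2 fold change of -0.34 ± 0.07 (SE; edgeR adjusted p = 0.0242; 0.0687 with the trend on gene length removed; lost in 8 of 18 alternatives). In FPKM, Irs2 exceeded Irs1 by 12.7, 9.21 and 13.5 times in aged libraries, and by 6.38, 6.29 and 5.71 times in young ones. The groups did not overlap (two-sided exact permutation p = 0.1, the smallest that 20 assignments allow). That result was fixed beforehand, because every aged library lay above every young library for Irs2 and below every young library for Irs1. The ratio, chosen after values were seen, thus restates the separate changes of Irs2 and Irs1 and adds no evidence to them.

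Response genes moved with Irs2. Of 12 glucocorticoid-responsive genes, 9 rose and 0 fell; their summed level was 883, 660 and 835 CPM in aged libraries, against 431, 477 and 457 CPM in young ones. Of 12 immediate early genes, 7 rose and 0 fell, with 758, 741 and 1049 CPM in aged and 392, 536 and 391 CPM in young libraries. Over all genes tested, 3.22% were called higher. Both lists were chosen with earlier results of these data known, so their counts are not independent evidence of a response. Aged replicate 2 was the lowest aged library for Irs2 and for both lists, but also for lists of other kinds, such as astrocytes (3214 CPM, against 4296 and 4377), oligodendrocyte precursors (796 CPM, against 959 and 990) and the PI3K, AKT and mTOR cascade (2538 CPM, against 2653 and 2647). The part of this response in the higher Irs2 was not tested.

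**Figure D4:**
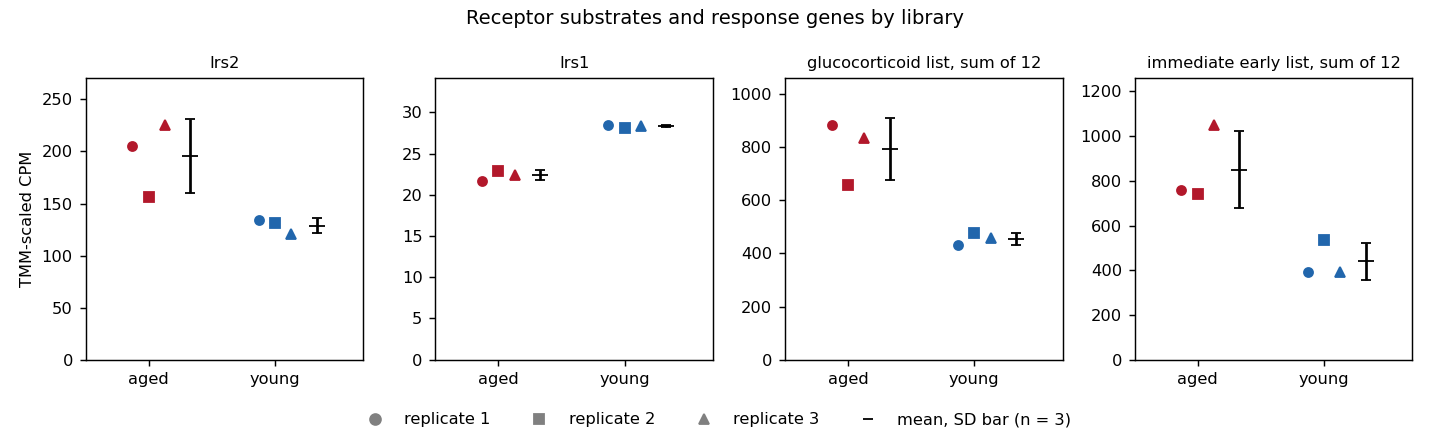
Irs2, Irs1 and the summed levels of 12 glucocorticoid-responsive and 12 immediate early genes in each library, in TMM-scaled CPM, aged left of young; bars show the mean with its SD (n = 3). Irs2 and both lists are higher in every aged library than in any young one, and Irs1 is lower.

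Beyond the 10 genes, 105 others of the pathway were listed by role, of which 95 could be tested; 5 rose, 6 fell and 84 did not pass. Their median log2 fold change was -0.00, close to that of all genes tested (-0.003). Called higher were 5.26% and called lower 6.32% of the 95, beside 3.22% and 3.64% of all genes.

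Among other ligands, binding proteins and their proteases, 11 were tested, 1 fell and 1 rose (list median -0.13). Ide, the enzyme that degrades insulin, had 56.4, 51.2 and 59.4 CPM in aged libraries, against 81.6, 86.4 and 83.1 CPM in young ones. The groups were far apart, and the log2 fold change of -0.59 ± 0.07 (SE; edgeR adjusted p = 0.00396) passed in 18 of 18 alternatives. Insrr, an orphan receptor of the insulin receptor family that responds to alkaline pH, was scarce, at 3.03, 1.09 and 2.60 CPM in aged and 0.762, 0.517 and 0.890 CPM in young libraries; its call (1.61 ± 0.41, edgeR adjusted p = 0.0461) was lost in 8 of 18 alternatives. Pappa2, a protease that cuts binding proteins, and Lnpep, a membrane peptidase that travels with glucose transporter vesicles, did not pass (-0.46 and -0.86, edgeR adjusted p = 0.173 and 0.174).

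Among adaptors and brakes at the receptor, 20 were tested, 2 fell and 0 rose (list median -0.04). Besides Irs1, this was Shc3, a neuronal adaptor that links receptors to RAS, which fell by 0.44 on the log2 scale (edgeR adjusted p = 0.0393; lost in 8 of 18 alternatives). Socs3, an inhibitor of insulin and leptin receptor signalling, stood at 3.76, 4.36 and 7.04 CPM in aged and 2.58, 2.24 and 2.95 CPM in young libraries and just missed the threshold (0.96 ± 0.25, edgeR adjusted p = 0.0509; passed in 7 of 18 alternatives). Ptpn1, a phosphatase that switches the insulin receptor off, did not pass (0.27 ± 0.08, edgeR adjusted p = 0.0682; passed in 4 of 18).

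In the PI3K, AKT and mTOR cascade, 30 were tested, 3 fell and 0 rose (list median -0.06). Gsk3b, a kinase that AKT inhibits, had 168, 194 and 169 CPM in aged libraries, against 228, 243 and 213 CPM in young ones (-0.37 ± 0.08, edgeR adjusted p = 0.0248). Deptor, an inhibitor of mTOR, and Pik3r1, a regulatory subunit of PI3-kinase, fell by 0.47 and 0.26 on the log2 scale (edgeR adjusted p = 0.0467 and 0.0486). Gsk3b lost its call in 5 of 18 alternatives, Deptor in 9 and Pik3r1 in 12. Rheb, the activator of mTOR, and Ddit4, a stress-induced inhibitor of it, did not pass (0.23 and 0.28, edgeR adjusted p = 0.0715 and 0.0790). With the trend on gene length removed, Irs1, Shc3, Gsk3b, Deptor and Pik3r1 all lost the call (edgeR adjusted p = 0.0538 to 0.191), and Ide remained the 1 pathway gene called lower.

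Among FOXO factors and their targets, 15 were tested, 4 rose and 0 fell (list median 0.08). The 4 were targets: Txnip, an inhibitor of thioredoxin and of glucose uptake (0.88 ± 0.11, edgeR adjusted p = 0.00396), Depp1, a regulator of autophagy (3.41 ± 0.42, edgeR adjusted p = 0.00409), Bcl6, a transcriptional repressor (0.80 ± 0.14, edgeR adjusted p = 0.0139), and Klf15, a transcription factor that glucocorticoids also induce (0.74 ± 0.16, edgeR adjusted p = 0.0288). The calls of Txnip and Depp1 held in 18 of 18 alternatives, while Klf15 lost its call in 5 of 6 fits without a single library (all but that without aged replicate 2; edgeR adjusted p up to 0.106) and Bcl6 in 2 (without aged replicates 1 and 3; edgeR adjusted p = 0.0504 and 0.0624). Txnip had 40.9, 34.3 and 38.2 CPM in aged libraries, against 18.7, 19.3 and 23.4 CPM in young ones. Depp1 was scarce, at 6.33, 2.54 and 5.37 CPM in aged and 0.41, 0.57 and 0.33 CPM in young libraries. Its young values rested on 7, 10 and 6 reads, so the size of its change is uncertain. Over the alternatives its log2 fold change ran from 1.745, on log2(FPKM + 1), to 3.73. Foxo1 itself stood at 52.4, 31.1 and 56.1 CPM in aged and 29.0, 28.7 and 29.5 CPM in young libraries; every aged value was higher, but with aged replicate 2 near the young ones it did not pass (0.67 ± 0.18, edgeR adjusted p = 0.0551), though it passed in 7 of 18 alternatives, DESeq2 among them. Fbxo32, a ubiquitin ligase subunit, did not pass (-0.32, edgeR adjusted p = 0.119). Aged replicate 2 was the lowest aged library for Foxo1 and each of the 4 targets too, as it was for the lists of several kinds given beside Irs2. Of 12 glucocorticoid-responsive genes, 9 rose in the same comparison, where 3.22% of all genes tested were called higher. Both this list and that of FOXO factors and targets were chosen with earlier results of these data known. Neither count is therefore independent evidence. The parts of FOXO factors and of glucocorticoids in the rise of these 4 targets were not tested.

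In the RAS and ERK cascade, 0 of 16 passed in edgeR, with Hras and Araf nearest (0.21 and 0.16, edgeR adjusted p = 0.0879 and 0.0979); 5 had an unadjusted p under 0.05, and 0 passed in DESeq2 and 0 in limma-voom. In the group of IGF2 mRNA-binding proteins and imprinted neighbours, 0 of 3 tested genes passed in edgeR (Plagl1 0.15 and Dlk1 -0.09, edgeR adjusted p = 0.183 and 0.459); 1 had an unadjusted p under 0.05, and 0 passed in DESeq2 and 0 in limma-voom.

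**Figure D5:**
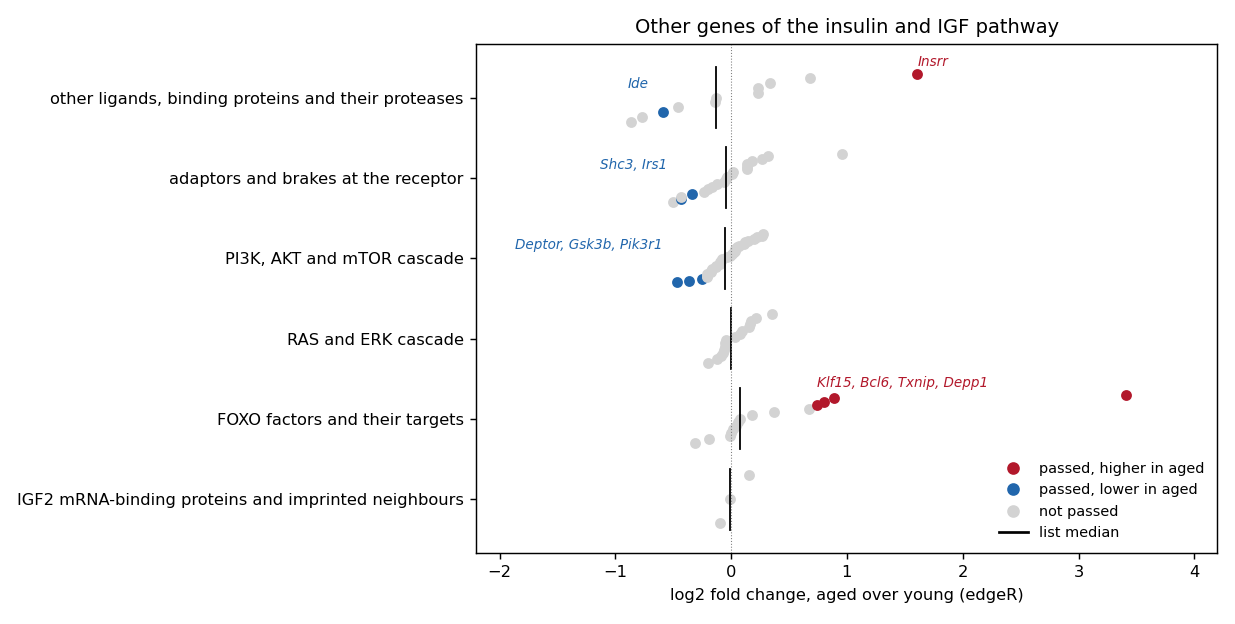
Log2 fold change of aged over young for the tested genes of 6 pathway lists, one point per gene; red passed higher in aged, blue passed lower in aged, grey did not pass, and the black line is the list median. The 4 FOXO targets that rose lie right of their list's median of 0.08, and the RAS and ERK cascade has no coloured point.

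Genes with the most similar pattern were sought for the 4 genes that passed, as the Pearson correlation of log2 CPM over the 6 libraries. These are descriptions over 6 points, which the age groups and shared tissue make-up shape, among 14702 genes. For Irs2 they were Arid5a (r = 0.999), Top1 (0.999) and Insyn2a (0.995), of which Arid5a, an RNA-binding protein, rose. For Igf2 they included Magix (0.992) and Cdh10 (0.992), and Cdh10, a cadherin, fell. For Igf1r they were Slc26a1 (0.997), Bcas3 (0.995) and Add2 (0.995), none of which passed. For Igfbp5 they were Myt1 (0.995), Ddah1 (0.995) and Tnrc6b (0.993), and the last 2 of these fell. With the group means taken out, the most similar included Gpr45, Ddhd1 and Trim16 for Irs2, Igfbpl1 and Tmem37 for Igf2, Med15, Znrf3 and Pik3cd for Igf1r, and Asap1, Cdc37 and Bap1 for Igfbp5 (r of at least 0.992).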

How the data were processed

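RNA was measured in 6 hypothalamus libraries, 1 per mouse. A mirVana extraction of total RNA and a TruSeq Stranded mRNA preparation are given per the labels' protocols. The deposited count table holds read counts per gene, not normalized by the authors. The FPKM deposited by the authors equal these counts over gene length and library total (relative tolerance 1e-06) for 18228 of 18228 genes. Trimmomatic, HISAT2, Cufflinks, HTSeq, DESeq and the build GRCm39 are listed, with no versions, per the submitters' processing notes; annotation release, strand setting and multi-mapping reads are not stated there. Without strand, reads of Igf1, Igf2, Igf2r, Insr and Irs2 cannot be told from those of antisense genes that overlap them in GENCODE M21 (Igf2os for Igf2, Airn for Igf2r). A few genes of the lists are not analysed here.

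Aged and young were compared with edgeR 4.0.16 (R 4.3.3; glmQLFit and glmQLFTest, no covariate, TMM scaling), after filterByExpr (minimum count 10, minimum total 15) left 14702 genes with 99.9% of reads. SEs and 95% intervals are those implied by the test; the biological coefficient of variation was 8.52%. Chi-square per degree of freedom between replicates was 3.91 to 11.6. On simulated data edgeR recovered 68% of genes changed 1.5-fold and 91% of those changed 2-fold in this comparison, with 9.66% false calls (14623 genes tested). Alternatives used limma 3.58.1, DESeq2 1.42.0, other scalings and filters, log2(FPKM + 1) and log2(FPKM + 0.1), a length trend removed by loess, a block on replicate number, and omission of each library in turn. Members and lists were chosen with earlier results of these data known. Named were all 10 genes; per pathway list the genes that passed and up to 2 nearest to passing; the first 3 markers of a list or up to 3 that passed; and the 3 genes most similar to each of the 10 that passed, not all of which are reported here. Igfbp7, the within-library ratios and shares, and the promoter motifs were chosen after values were seen. Folds on log2(FPKM + pseudocount) understate changes of low genes.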

Additional observations from a re-analysis of the deposited data

How the results depend on the processing

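Under 18 alternatives Igf2, Igf1r, Igfbp5 and Irs2 kept their direction and, in the 12 that kept all libraries, their calls; log2 fold changes ran from -0.61 to -0.46, -0.41 to -0.28, -0.42 to -0.29 and 0.50 to 0.75. Without single libraries the number of the 10 genes called higher was 0 to 1 and called lower 0 to 3. In the same fits 1.01% to 11% of all genes were called, beside 6.86% with all libraries, and the lowest shares came without aged replicate 3 and aged replicate 1 (1.01% and 1.64%). Scaling by library totals alone gave 5 of the 10 genes without overlap, beside 4. Of the other pathway genes, 8 were called higher with library totals alone or with the length trend removed, beside 5, and 2 to 12 without single libraries (12 without aged replicate 2). Those called lower numbered 2 on log2(FPKM + 1) and 2 on log2(FPKM + 0.1), 1 with the length trend removed, beside 6, and 1 to 5 without single libraries. The cause of these differences was not tested.

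No label says that replicate numbers pair the mice. Deviations of same-numbered libraries correlated at 0.0952, 0.0389 and -0.152, and not every library correlated best with its own number. With 3 libraries per age these values cannot exclude a pairing. With the replicate number as a block, 1 of the 10 genes was higher and 4 were lower, Igf1 being added (edgeR adjusted p = 0.0491), and 7 pathway genes were higher and 7 lower. With 3 mice a group and no label of separate litters or days, the changes of Igf1, Igfbp2 and Igfbp4 have wide intervals (SE 0.24, 0.22 and 0.21).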
